A study of Mus musculus with 8 samples.

Results

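The proteins that airway cells secrete onto their surface form a barrier of mucus and antimicrobial factors, and 10 genes that encode its main parts were followed across genotype and smoke exposure. The genes were chosen by name, as the rows of the count tables with the symbols Bpifa1, Bpifb1, Muc5b, Muc5ac, Muc1, Pigr, Reg3g, Ltf, Lcn2 and Agr2, and all 10 were found among the 22756 genes counted. Earlier results of these data were known when the genes were chosen. Shares of all genes set beside the members below are therefore descriptions and not a test of the set. Together they took between 0.187% and 0.773% of the counts of a library. RNA-Seq was carried out on 8 libraries from distal lung of adult mice of a background that is mostly C57BL/6, after cells positive for CD45, the common leukocyte antigen, had been depleted to enrich the epithelium.

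Both mouse lines carried an IRES-tauGFP reporter in Chrna7, the gene of the α7 nicotinic acetylcholine receptor. In α7G mice the receptor was otherwise normal (Chrna7-IRES-tauGFP), and in α7E260A:G mice it also carried the E260A point mutation, which limits calcium signalling from the receptor (Chrna7-E260A-IRES-tauGFP). Mice of each line breathed room air (control) or side-stream cigarette smoke (CS) on 5 days a week for 4 months. The 4 groups, α7G control, α7G CS, α7E260A:G control and α7E260A:G CS, each held 1 library from males and 1 from females. The number of mice behind a library is not given in the sources used here, so p-values measure the spread between these libraries. Totals ran from 8020726 to 10944100 counts in coding sequence (CDS), with a median of 8728564, and 3 counts, used as the floor, correspond to 0.274 to 0.374 RPM, the count scaled to 1000000 CDS counts in a library. The Y-linked gene Ddx3y had 520 to 882 counts in the libraries labelled male and 0 in those labelled female. Chrna7 itself had 0 counts in 7 libraries and 4 in the other, so CDS counts could not show the mutation. In bulk RNA of this kind, fewer cells of a type and less RNA per cell cannot be told apart.

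Mucus of the mouse airway is built from gel-forming mucins, mainly Muc5b, which is made constitutively by club cells and gland cells, and Muc5ac, which goblet cells make when stimulated. Membrane-tethered mucins such as Muc1 stay on the cell surface, and Agr2 is a protein disulphide isomerase of the endoplasmic reticulum that mucin folding needs. Secreted into the same layer are the BPI fold proteins Bpifa1 and Bpifb1, the bactericidal lectin Reg3g, the iron-binding protein lactoferrin (Ltf) and the siderophore-binding protein lipocalin 2 (Lcn2). Pigr, the polymeric immunoglobulin receptor, carries dimeric IgA across the epithelium.

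Promoters are shown first, for the 5 members whose genotype difference passed with DESeq2 or the CDS length offset below. Transcript levels were counted over the CDS and not at these sequences. RefSeq promoters, given with the GRCm38.p6 build, were found for 8 of the 10 members, and each printed here matched 1 place in NCBIM37 (mm9), whose coordinates are used below. Each covers 300 bases, 5′ to 3′ on the strand of the gene, and the last 50 lie after the start site. Capitals mark TATAAA, the TATA box, or TTCNNNGAA, the palindrome bound by STAT factors. They are matches of letters and not shown binding sites.

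Bpifa1, chr2:153968366-153968665, plus strand: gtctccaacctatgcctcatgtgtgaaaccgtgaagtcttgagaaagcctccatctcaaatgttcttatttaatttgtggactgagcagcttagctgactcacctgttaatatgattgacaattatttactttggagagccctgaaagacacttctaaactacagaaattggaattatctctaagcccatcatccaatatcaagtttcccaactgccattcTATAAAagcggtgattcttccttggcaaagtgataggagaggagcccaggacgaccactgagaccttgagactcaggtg
Bpifb1, chr2:154016304-154016603, plus strand: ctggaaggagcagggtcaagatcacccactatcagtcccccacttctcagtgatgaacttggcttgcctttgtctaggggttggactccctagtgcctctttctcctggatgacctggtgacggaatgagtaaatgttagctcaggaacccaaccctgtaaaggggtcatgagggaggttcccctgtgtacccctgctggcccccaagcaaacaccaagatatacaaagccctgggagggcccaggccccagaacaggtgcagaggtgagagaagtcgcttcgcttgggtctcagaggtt
Muc1, chr3:89032728-89033027, plus strand: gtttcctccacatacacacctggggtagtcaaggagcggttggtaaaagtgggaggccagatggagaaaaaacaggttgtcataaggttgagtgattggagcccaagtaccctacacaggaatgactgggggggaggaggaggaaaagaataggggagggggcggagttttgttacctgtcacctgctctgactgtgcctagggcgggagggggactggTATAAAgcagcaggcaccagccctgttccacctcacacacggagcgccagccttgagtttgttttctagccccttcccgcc
Reg3g, chr6:78418819-78419118, minus strand: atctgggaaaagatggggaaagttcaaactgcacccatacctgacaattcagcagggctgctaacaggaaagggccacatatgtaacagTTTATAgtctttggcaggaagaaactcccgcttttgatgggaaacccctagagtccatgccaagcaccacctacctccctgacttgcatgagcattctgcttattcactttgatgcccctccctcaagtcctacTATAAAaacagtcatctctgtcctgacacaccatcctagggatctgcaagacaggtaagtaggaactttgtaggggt
Pigr, chr1:132723011-132723310, plus strand: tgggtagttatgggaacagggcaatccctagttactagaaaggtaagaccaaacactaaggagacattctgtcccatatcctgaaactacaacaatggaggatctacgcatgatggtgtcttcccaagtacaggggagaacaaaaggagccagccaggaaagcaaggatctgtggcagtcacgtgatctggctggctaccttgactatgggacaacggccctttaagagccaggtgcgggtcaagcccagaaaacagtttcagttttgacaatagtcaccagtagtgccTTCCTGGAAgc

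A TATAAA match began at base 222 of the Bpifa1 promoter, base 220 of that of Muc1 and base 224 of that of Reg3g, which also held it at base 90 on the opposite strand. Of the 32851 promoters in the table, 13.6% held TATAAA on either strand. The Pigr promoter held TTCNNNGAA at base 290, after the start site, and 8.3% of all promoters held it. The Bpifb1 promoter shown, which lies at the start of the annotated gene, held neither motif. Bpifb1 had another promoter in RefSeq, at chr2:154025866-154026165, with TTCNNNGAA at base 105. The other motifs searched were TTGCNNAA, bound by C/EBP factors and present in 10.8% of promoters, TGTTTAC, bound by forkhead factors and present in 3.65%, and CAAGTG, bound by NKX2 factors and present in 13.6%. TTGCNNAA was found in Ltf, at base 176 on the opposite strand, and in Lcn2, at base 35, and TGTTTAC and CAAGTG in none of the 8 members.

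Levels were compared between the members as RPKM, the RPM divided by the CDS length in kilobases, since their CDS runs from 522 bases for Reg3g to 14419 for Muc5b. Bpifa1, on chromosome 2 with a CDS of 834 bases, was the highest in every library, with a mean of 3526 RPKM over the 8 libraries and a range of 811 to 6096. It made up 36.1% to 65.8% of the counts of the 10 members. Reg3g, with a mean of 593 RPKM and a range of 119 to 1381, and Bpifb1, with 544 and 233 to 980, came next and overlapped.

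Lcn2 had a mean of 218 RPKM, Ltf 141 and Muc1 104, with ranges of 96.7 to 305, 74.2 to 266 and 43.2 to 161 that overlapped between neighbours, as those of Bpifb1 and Lcn2 and of Muc1 and Pigr did. Pigr, at 44.9, and Agr2, at 41.9, could not be told apart within their ranges of 22.5 to 76.7 and 15.8 to 98.9. Muc5b lay at 7.31 RPKM, between 2.42 and 17.0, which overlapped the lowest Agr2 value. Muc5ac lay at 0.322 RPKM, between 0.110 and 0.802, below every other member in every library. The order therefore ran from a secreted BPI fold protein at the top to the gel-forming mucins at the bottom. Counting error of a library's value, as the distance from the middle to the edge of its 95% Wilson interval, was 0.921% to 10.04% of the value for the 8 members tested, 9.29% to 23.9% for Agr2 and 23.9% to 73.3% for Muc5ac. These intervals cover counting error only.

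**Figure D1:**
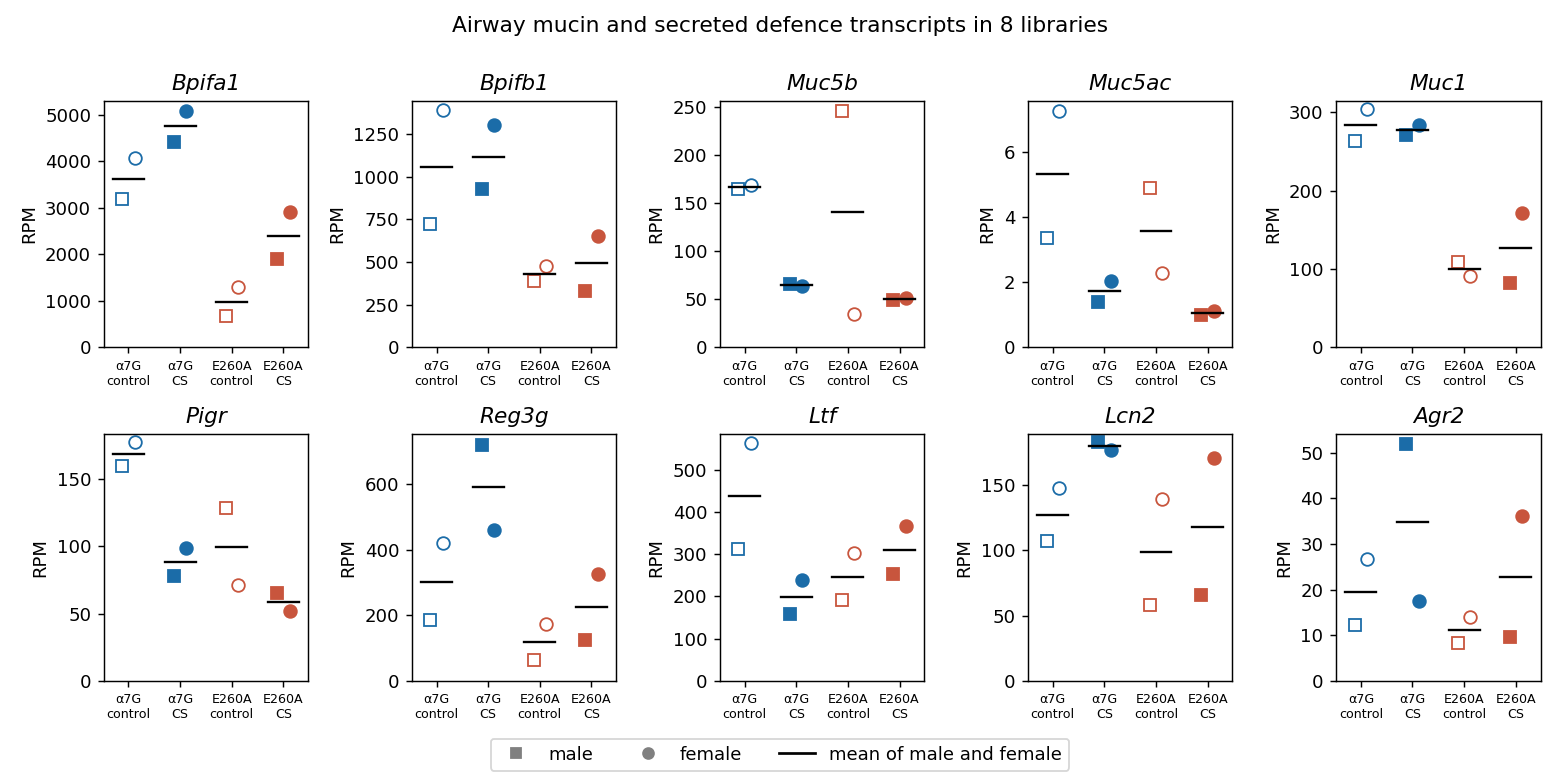
RPM (counts per 1000000 CDS counts, linear axes that start at 0) of the 10 members in each library, male libraries as squares and female libraries as circles, open for control and filled for CS, blue for α7G and red for α7E260A:G (written E260A on the axis), with the mean of male and female as a line. For Bpifa1, Bpifb1 and Muc1 all 4 α7E260A:G libraries lie below all 4 α7G libraries, and Muc5ac is lower in all 4 CS libraries than in all 4 controls.

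The first comparison asked whether the receptor mutation changed the members, over both exposures. Most of the secreted and cell-surface members were lower in α7E260A:G. Of the 8 members with a mean count of at least 200, which the study's abundance filter keeps, Bpifa1, Bpifb1 and Muc1 did not overlap between genotypes, lower in all 4 α7E260A:G libraries, against 5.14% of the 7196 genes tested. Those 3 together with Pigr, Reg3g and Lcn2, or 6 of 8, were lower in each of the 4 pairs of libraries of the same exposure and sex, against 15.0% of genes tested. With edgeR's quasi-likelihood test, 0 of the 8 passed an adjusted p of 0.05, where 0.0834% of all genes passed, and 4 had an unadjusted p under 0.05, as did 11.9% of all genes. DESeq2 called 4 of the 8, all lower, where it called 5.92% of all genes and 2.24% as lower. When the fit allowed for how each library's counts depended on CDS length (the CDS length offset below), 4 of the 8 passed, all lower, with 6.61% of all genes passing and 2.6% lower.

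Bpifa1, also known as SPLUNC1, is a surface-active protein of club and other secretory cells that limits bacterial biofilm and regulates the epithelial sodium channel. Its gene lies at chr2:153968616-153974955 in mm9. In α7G it was at 3191 RPM in the male control, 4064 in the female control, 4415 in the male CS and 5084 in the female CS library. In α7E260A:G the same 4 libraries were at 676, 1292, 1893 and 2909 RPM. Every α7E260A:G library was lower than every α7G library. The means were 1692 ± 951 and 4189 ± 788 RPM (SD, n = 4), a ratio of 0.404.

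The fitted difference of Bpifa1 between genotypes was a log2 fold-change of -1.33 (SE 0.35, adjusted p = 0.171, edgeR). With the CDS length offset it was -1.36 (adjusted p = 0.00784), and with DESeq2 -1.32 (adjusted p = 0.00575). Leaving out 1 library at a time, edgeR gave -1.73 (without the female α7E260A:G control library) to -1.10 (without the male one). The lowest of the 4 ratios by pair was 0.212, in male controls, and the highest 0.572, in female CS libraries.

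Bpifb1 (LPLUNC1), a longer BPI fold protein of goblet cells and glands, is encoded close by at chr2:154016554-154046105. In α7G it was at 723 RPM (male control), 1393 (female control), 926 (male CS) and 1300 (female CS), and in α7E260A:G at 386, 479, 332 and 651. The groups again did not overlap. The log2 fold-change was -1.14 (SE 0.37, adjusted p = 0.245, edgeR), and DESeq2 gave the same size with an adjusted p of 0.0454. The CDS length offset left it at -1.14 (adjusted p = 0.0643). Of the 14 BPI fold genes found in the files, 3 were tested, and the other one, Lbp, which binds bacterial lipopolysaccharide, had a log2 fold-change of -0.16 (SE 0.19).

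Muc1, the tethered mucin of the alveolar and airway surface, lies at chr3:89032979-89037303. It was at 263 RPM in the male control, 304 in the female control, 272 in the male CS and 285 in the female CS library of α7G. Values in α7E260A:G were 109, 90.6, 81.8 and 172 RPM. The 4 α7G libraries were close to each other, and all lay above the highest α7E260A:G library. The difference was a log2 fold-change of -1.24 (SE 0.28, adjusted p = 0.127, edgeR). DESeq2 called it (adjusted p = 0.00244), and so did the fit with the CDS length offset, at -1.24 (adjusted p = 0.0296).

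Pigr (chr1:132723261-132748826) stood at 159 RPM in the male and 177 in the female α7G control library and at 77.6 and 98.7 in those of α7G CS. In α7E260A:G the control libraries were at 129 and 71.0 RPM and the CS libraries at 65.7 and 52.0. The genotypes overlapped, but each α7E260A:G library was lower than its α7G counterpart of the same sex and exposure. The log2 fold-change was -0.63 (SE 0.18, adjusted p = 0.186, edgeR). It passed with DESeq2 (-0.63, adjusted p = 0.0369) and with the CDS length offset (-0.68, adjusted p = 0.0218).

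Reg3g (chr6:78416262-78418868, minus strand), which kills Gram-positive bacteria, was at 184 and 420 RPM in the male and female α7G controls and at 721 and 462 in the α7G CS libraries. In α7E260A:G it was at 62.0 and 174 RPM in controls and at 126 and 325 with CS. The ranges overlapped, and the ratio within pairs ran from 0.175 to 0.704. The log2 fold-change was -1.24 with a large error (SE 0.54, adjusted p = 0.438, edgeR). With the CDS length offset it was -1.34 (adjusted p = 0.0336).

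Lcn2 (chr2:32240153-32243317, minus strand) was at 107 and 148 RPM in the male and female α7G controls and at 183 and 177 with CS, and in α7E260A:G at 58.0 and 139 in controls and 65.6 and 171 with CS. The male α7E260A:G libraries were low and the female ones lay near their α7G counterparts, at ratios of 0.944 and 0.966. The log2 fold-change was -0.36 (SE 0.45, adjusted p = 0.88, edgeR). Ltf (chr9:110921796-110945270) had no difference beyond its error over both exposures, at 0.00 (SE 0.34, adjusted p = 0.998, edgeR). Its 4 libraries per genotype spanned 157 to 565 RPM in α7G and 192 to 367 in α7E260A:G.

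Of the gel-forming mucins, Muc5b passed the abundance filter and Muc5ac did not. Muc5b (chr7:149024975-149058990) was at 164 and 169 RPM in the male and female α7G controls and at 65.8 and 63.2 in the α7G CS libraries. In α7E260A:G, the male control had the highest value of all, 246 RPM, and the female control the lowest, 34.9, while the CS libraries were at 49.4 and 51.4. The spread within α7E260A:G controls was therefore wider than the difference between genotypes, a log2 fold-change of -0.30 (SE 0.46, adjusted p = 0.904, edgeR). Without the male α7E260A:G control library it was -1.18, and without the female one 0.07.

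Muc5b has the longest CDS of the members, and libraries differed in how their counts depended on CDS length. The slope, in log2 per doubling of CDS length, was 0.41 in the male α7E260A:G control, 0.23 in the male α7G control and 0.058 in the female α7G control, and -0.24 in the female α7E260A:G control. It was -0.24 and -0.20 in the male and female α7G CS libraries and 0.19 and -0.20 in those of α7E260A:G CS. High Muc5b therefore went with a slope above 0 in 3 libraries, and the male α7E260A:G CS library, with a slope above 0, had low Muc5b.

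After the length dependence was removed, Muc5b was at 112 and 156 RPM in the male and female α7G controls and at 126 and 113 in the α7G CS libraries. In α7E260A:G it was then at 86.3 and 45.1 RPM in controls and 33.3 and 77.3 with CS. The log2 shifts removed from Muc5b ran from -0.94 in the male α7G CS library to 1.51 in the male α7E260A:G control library. After their removal all 4 α7E260A:G libraries were below the 4 α7G libraries. The share of all genes with that pattern on this scale was not determined. The log2 fold-change between genotypes was -1.02 (adjusted p = 0.0789, edgeR with the CDS length offset). Between CS and control it was -0.15. In α7G the slope was above 0 in both control libraries and below 0 in both CS libraries. Removal of the length dependence can therefore also take out a smoke difference that follows CDS length.

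**Figure D2:**
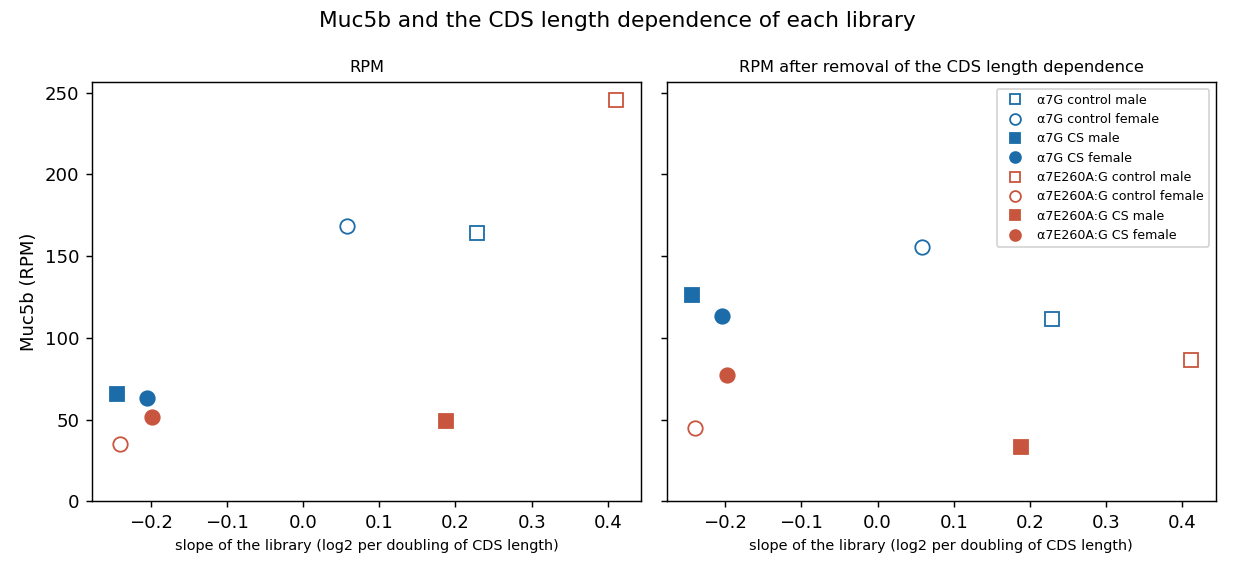
Muc5b in RPM (linear axis) against the slope of each library (log2 per doubling of CDS length), as counted on the left and after removal of the CDS length dependence on the right, with 1 point per library. On the left the highest point is the male α7E260A:G control at 246 RPM with a slope of 0.41; on the right the α7G libraries lie at 112 to 156 RPM and the α7E260A:G libraries at 33.3 to 86.3.

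Muc5ac (chr7:148974877-149005136) and Agr2 (chr12:36719494-36730674) had mean counts of 26.1 and 197, under the filter of 200, so their fits come from the larger set of 14140 genes that edgeR's own filter keeps. Muc5ac had 28 and 68 counts in the male and female α7G controls and 40 and 25 in those of α7E260A:G. Its difference between genotypes was a log2 fold-change of -0.58 (SE 0.44, adjusted p = 0.724, edgeR). Agr2 was at 12.3, 26.7, 51.9 and 17.5 RPM in the male control, female control, male CS and female CS libraries of α7G. In α7E260A:G the values were 8.29, 13.9, 9.60 and 36.1 RPM, and the log2 fold-change was -0.57 (SE 0.56, adjusted p = 0.814, edgeR). For both genes the libraries of the genotypes overlapped.

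**Figure D3:**
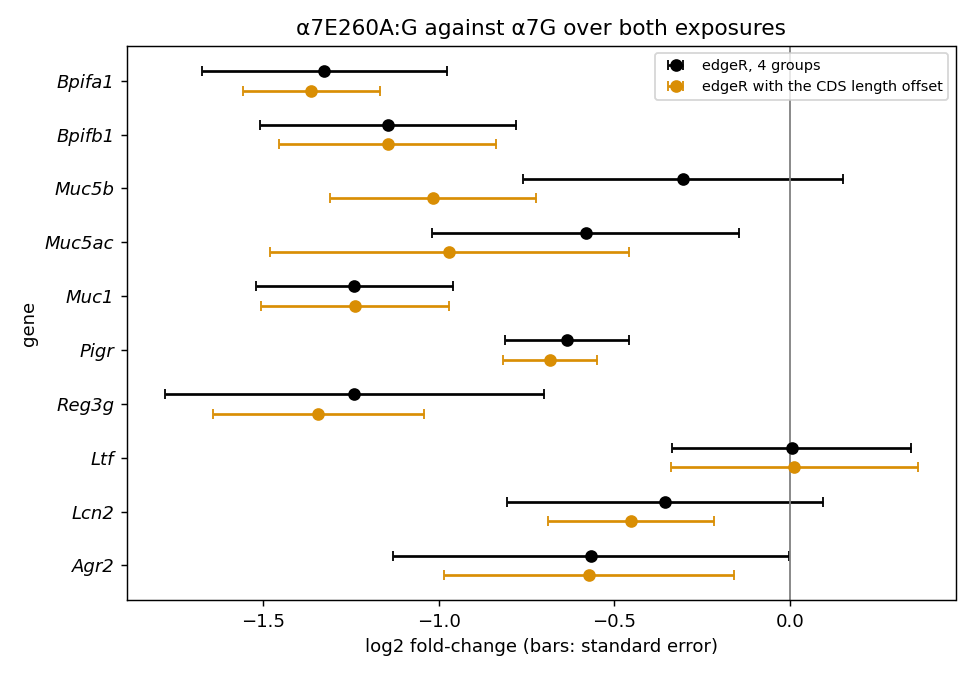
Log2 fold-change of α7E260A:G over α7G, both exposures together, with the standard error as a bar, for each member (Muc5ac and Agr2 from the fit of 14140 genes). Black points are the edgeR fit of the 4 groups and orange points add the CDS length offset, which takes Muc5b from -0.30 to -1.02 and leaves Bpifa1 near its -1.33.

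Markers of cell types moved with genotype in the same libraries. The summed level of 9 markers of alveolar type II cells was 20188 to 30782 RPM in α7G and 4813 to 14886 in α7E260A:G, and that of 8 club cell markers 50045 to 80209 and 19386 to 52515. For 5 general epithelial markers the ranges were 1213 to 1886 and 1002 to 1521 RPM. The 16 of 17 alveolar macrophage markers found in the files had a sum that ran the other way. It was 10669 to 18352 RPM in α7G and 24907 to 41627 in α7E260A:G. Of the 16, 9 were higher in α7E260A:G without overlap, against 2.99% of the genes tested. None of the markers of these 4 lists was at 0 in all 8 libraries. Goblet cell markers, 6 in number with the members Muc5b and Muc5ac among them, summed to 187 to 581 and 63.3 to 486 RPM. Ciliated cell markers, 7 of 8 found, summed to 615 to 1065 and 447 to 803.

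Relative to the mean log2 level of the 5 general epithelial markers, itself lower by 0.64 in α7E260A:G, the difference was -0.84 for Bpifa1, -0.73 for Muc1, -0.82 for Reg3g and -0.59 for Bpifb1. Bpifa1 and Muc1 did not overlap between genotypes on that scale, but the gaps were small. The lowest α7G and highest α7E260A:G values were 3.90 and 3.89 for Bpifa1 and -0.11 and -0.19 for Muc1. The share of all genes with that pattern on this scale was not determined. Pigr and Agr2 came to -0.06 each, Lcn2 to 0.02 and Muc5b to 0.04. Muc5ac was higher at 0.14 and Ltf at 0.565. Relative to 8 club cell markers the differences were -0.64 for Bpifa1, -0.62 for Reg3g, -0.52 for Muc1 and -0.39 for Bpifb1. The other members were higher in α7E260A:G on that scale. They came to 0.77 for Ltf, 0.34 for Muc5ac, 0.25 for Muc5b, 0.22 for Lcn2, 0.15 for Pigr and 0.14 for Agr2. Only Muc1 of the 10 members was then lower in all 4 pairs, and every member overlapped between genotypes. Differences relative to type II cell markers, whose median log2 fold-change between genotypes was -1.20, were not computed. The part of cell composition in these differences was not tested beyond these values.

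The second comparison asked what smoke changed, over both genotypes. Mean levels of Muc5b, Muc5ac and Pigr were lower with smoke and those of Bpifa1 and Reg3g higher, but none of these differences passed the adjusted threshold in edgeR. With edgeR's quasi-likelihood test, 0 of the 8 members tested passed and 0.0% of all genes did; 3 members had an unadjusted p under 0.05, as did 7.57% of all genes. DESeq2 called 1 member, Pigr, as lower, and 0.542% of all genes, 0.208% as lower. Bpifa1, Reg3g and Lcn2 were higher in CS in each of the 4 pairs of the same genotype and sex, where 13.1% of genes tested were, and Pigr was lower in each, where 12.1% were. After removal of the CDS length dependence, Reg3g was lower with CS in female α7G, at 382 against 453 RPM. Lcn2 was then lower in female α7G (149 against 158) and in male α7E260A:G (78.6 against 83.8). Bpifa1 stayed higher and Pigr lower in each pair.

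Pigr was lower with CS in every pair, at ratios of 0.487 and 0.556 in male and female α7G and 0.510 and 0.732 in α7E260A:G. The log2 fold-change over both genotypes was -0.81 (SE 0.18, adjusted p = 0.63, edgeR), and with DESeq2 -0.82 (adjusted p = 0.0173). With the CDS length offset it was -0.68 (adjusted p = 0.235). In each genotype taken separately the log2 fold-change was also -0.81. When the 4 α7G libraries were fitted alone, Pigr passed (adjusted p = 0.0289), and Muc5b passed too (-1.25, adjusted p = 0.0145), as did 16.1% of all genes, 8.5% as lower. In the 4-group edgeR fit 0 of 8 members passed within either genotype, and 0 with DESeq2, with an unadjusted p under 0.05 for 1 member in α7G and 2 in α7E260A:G, against 6.73% and 1.7% of all genes. Igj, the joining chain of the dimeric IgA that Pigr carries, had a log2 fold-change of -1.49 with CS (SE 0.78, adjusted p = 0.644, edgeR). It was named after its value was seen. Of the 3 tested genes of immunoglobulin transport, Pigr and Igj among them, only Pigr was lower with CS in all 4 pairs. The 5 tested B and plasma cell markers, Igj among them, had a median of 0.19 with CS, and 0 were lower in all 4 pairs. Their sum was 6181 RPM in the female α7E260A:G control and 897 to 2127 in the other controls. Between genotypes the median log2 fold-change of these 5 markers was -0.99. Of the 5, 4 were lower in α7E260A:G without overlap, against 5.14% of the genes tested.

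Muc5ac was the one member whose 4 CS libraries lay below its 4 control libraries, a pattern shared by 0.417% of the genes tested, a set that Muc5ac itself is too low to enter. Its level was 3.37 and 7.26 RPM in the male and female α7G controls against 1.40 and 2.03 with CS, and 4.87 and 2.28 in α7E260A:G controls against 0.997 and 1.11 with CS. The CS libraries had 8 to 18 counts each. The log2 fold-change was -1.63 (SE 0.44, adjusted p = 0.637, edgeR, 14140 genes), and with the CDS length offset -0.98. In α7G it was -1.50 and in α7E260A:G -1.75.

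Muc5b did not have that pattern, because of the low female α7E260A:G control library. Its ratio of CS to control was 0.400 and 0.375 in male and female α7G and 0.201 in male α7E260A:G, but 1.47 in female α7E260A:G. The log2 fold-change over both genotypes was -1.33 (SE 0.46, adjusted p = 0.63, edgeR), with -1.25 in α7G and -1.42 in α7E260A:G. Without the female α7E260A:G control library it was -1.71, and without the male one -0.47. Removal of the length dependence, as given above, took it to -0.15.

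Bpifa1 was higher with CS in every pair, by 1.38 and 1.25 times in male and female α7G and by 2.80 and 2.25 times in α7E260A:G. Over both genotypes the log2 fold-change was 0.83 (SE 0.35, adjusted p = 0.63, edgeR), with 0.51 in α7G and 1.16 in α7E260A:G. With the CDS length offset it was 0.67 (adjusted p = 0.377). Reg3g was 3.91 and 1.10 times higher in male and female α7G and 2.03 and 1.87 times higher in α7E260A:G. Its log2 fold-change was 0.94 (SE 0.54, adjusted p = 0.656, edgeR), with 1.07 and 0.80 in the 2 genotypes. Without the female α7E260A:G CS library it was 0.43, and without the female α7E260A:G control library 1.55. With the CDS length offset Reg3g had 0.69 (adjusted p = 0.537, edgeR).

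For 3 other members the difference with CS was within its standard error. Lcn2 had a log2 fold-change of 0.38 (SE 0.45, and 0.13 with the CDS length offset), Bpifb1 0.15 (SE 0.36) and Muc1 0.20 (SE 0.28). Agr2 had 0.97 (SE 0.57, adjusted p = 0.678, edgeR) but was lower with CS in female α7G, at a ratio of 0.655. Relative to the 5 general epithelial markers, which were themselves higher by 0.31 with CS, the log2 difference was 0.56 for Bpifa1, 0.70 for Reg3g and -1.13 for Pigr, with Reg3g higher in 4 of 4 pairs and Bpifa1 in 3. Relative to the 8 club cell markers, higher by 0.37 with CS, it was 0.49 for Bpifa1, higher in 2 of 4 pairs, 0.63 for Reg3g, higher in 3, and -1.20 for Pigr, and Lcn2 came to 0.00.

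**Figure D4:**
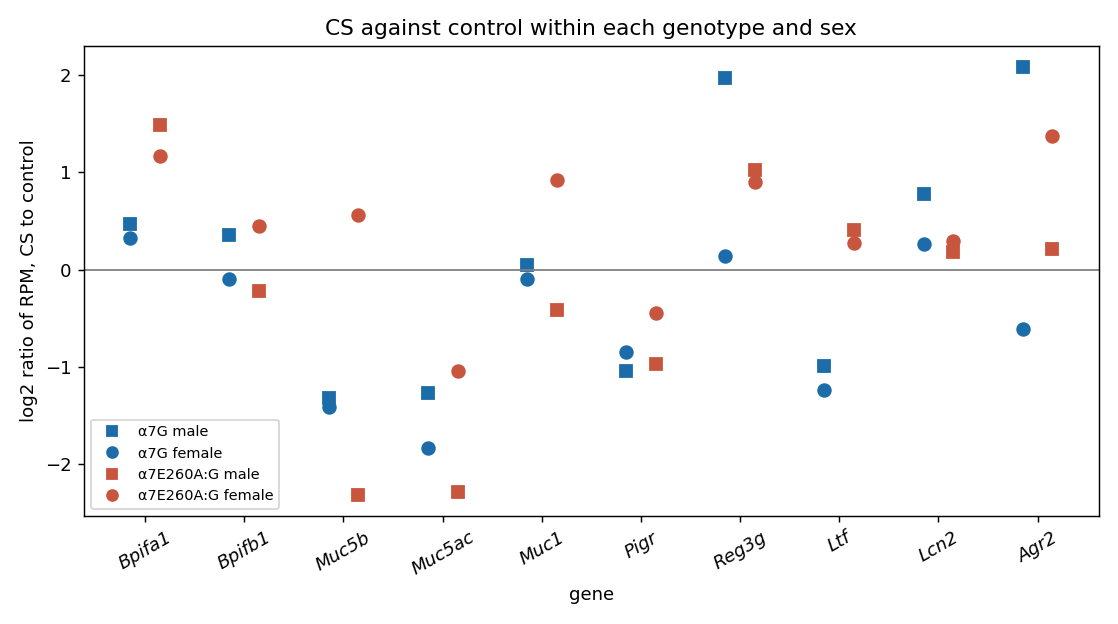
Log2 ratio of RPM in CS to control for each member within each genotype and sex (squares male, circles female, blue α7G, red α7E260A:G), with a line at 0. All 4 points lie above 0 for Bpifa1, Reg3g and Lcn2 and below 0 for Pigr and Muc5ac, and for Ltf the α7G points lie below and the α7E260A:G points above 0.

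The third comparison asked whether the response to smoke differed between genotypes. No member passed (0 of 8, edgeR, and 0 with DESeq2), and 0 had an unadjusted p under 0.05, where 1.45% of all genes did. Ltf was the one tested member whose direction was opposite between genotypes in both sexes. It was at 312 and 565 RPM in the male and female α7G controls and at 157 and 239 with CS, ratios of 0.504 and 0.423. In α7E260A:G it was at 192 and 302 RPM in controls and 254 and 367 with CS, ratios of 1.32 and 1.21. Both sexes were thus lower with CS in α7G and higher in α7E260A:G, as were 11.6% of the genes tested.

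The log2 fold-change of Ltf with CS was -1.03 in α7G and 0.22 in α7E260A:G, and the difference of the responses was 1.25 (SE 0.68, adjusted p = 0.997, edgeR). Leaving out the female α7G control library took the difference to 0.70 and the change in α7G to -0.47, and leaving out the female α7E260A:G control took the difference to 1.86. Ltf is also a granule protein of neutrophils. The 11 neutrophil markers, none of which was at 0 in all 8 libraries, summed to 968 to 2895 RPM in α7G and 1150 to 3283 in α7E260A:G. In α7G they went from 2895 RPM (male) and 968 (female) in controls to 1856 and 2058 with CS, and in α7E260A:G from 1277 and 3283 to 1150 and 2444. Their part in the Ltf values was not tested. For Bpifa1, the difference of the responses was 0.65 (SE 0.69, adjusted p = 0.997, edgeR).

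Genes of the same pathways were taken from lists by function. Those under the abundance filter that are not members are named because their 4 and 4 libraries did not overlap. The share of all genes under the filter with that pattern was not determined. None of the lists had a gene that passed in edgeR, for genotype or for smoke, and the medians below are read against 0.04 for genotype and 0.00 for smoke over all 7196 genes. Of 4 genes of the goblet cell secretory programme that were tested, 2 passed with the CDS length offset, both lower in α7E260A:G, where 2.6% of all genes passed as lower, and the median log2 fold-change of the 4 was -0.91. They were Agr3, a relative of Agr2, at -1.29 (SE 0.35, -1.27 and adjusted p = 0.0112 with the offset), and Tff2, a trefoil peptide that is secreted with mucins, at -1.73 (SE 0.71, -1.95 and adjusted p = 0.0268 with the offset). Foxa2, a forkhead factor that restrains goblet cell differentiation, was untested but lower in all 4 α7E260A:G libraries, at 10.8 to 17.3 RPM against 17.5 to 28.2.

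The enzymes of mucin O-glycosylation had a median of 0.17 over 12 tested genes, and 2 passed with the offset, both higher in α7E260A:G, where 4.02% of all genes passed as higher. St6galnac2, a sialyltransferase that caps short O-glycans, was at 4.89 to 16.1 RPM in α7G and at 45.5 to 70.7 in α7E260A:G, a log2 fold-change of 2.39 (SE 0.36, adjusted p = 0.084, edgeR; with the offset 2.42, adjusted p = 0.00694). Its relative St6galnac1 had a library at 0 in α7G and at most 0.601 RPM there, against 1.75 to 3.29 in α7E260A:G. Gcnt1, which builds branched core O-glycans, was at 22.1 to 35.8 against 36.1 to 67.3 RPM (0.94, SE 0.20, and adjusted p = 0.0273 with the offset).

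Among 15 secreted antimicrobial proteins tested, the median was -0.24 for genotype, and with the offset 2 passed as higher and 2 as lower in α7E260A:G, where 4.02% and 2.6% of all genes did. Slpi, a protease inhibitor, was higher, at 320 to 1097 RPM against 207 to 315 (1.34, SE 0.45; with the offset 1.19, adjusted p = 0.00869). Lyz2, the lysozyme of macrophages and type II cells, was higher too (0.80, SE 0.39; adjusted p = 0.026 with the offset), though counting may split reads between it and its close copy Lyz1. Wfdc2, a secretory protein of club cells, was lower with Reg3g (-0.74, SE 0.34; adjusted p = 0.0284 with the offset). The collectins Sftpa1 and Sftpd, made by type II cells, were lower without overlap, Sftpd at 278 to 687 RPM against 816 to 1469 (-1.22, SE 0.44, adjusted p = 0.314, edgeR) and Sftpa1 at 709 to 2267 against 2551 to 4478 (-1.18, SE 0.48, adjusted p = 0.383, edgeR).

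Of the tethered mucins, 2 were tested, Muc1 and Muc4, and Muc4 ran against Muc1 at 0.96 (SE 0.29, adjusted p = 0.227, edgeR; DESeq2 adjusted p = 0.048; with the offset 0.48). Muc20, untested, was at 6.67 to 12.6 RPM in α7E260A:G and at 16.4 to 29.9 in α7G. Among 11 tested receptors and factors that act on mucin and defence genes, Hif1a, the oxygen-sensing factor, was at 162 to 210 RPM against 96.9 to 161 in α7G (0.67, SE 0.13, adjusted p = 0.106, edgeR; with the offset 0.63, adjusted p = 0.0326). Il17rc and Il17re, subunits of receptors for IL-17 cytokines, were untested and lower without overlap, at 8.498 to 17.5 against 17.9 to 21.6 RPM and at 4.93 to 10.3 against 10.8 to 16.9 RPM. The 11 tested genes of that list had a median of 0.15, with 0 lower without overlap and 1 higher.

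With smoke, Clca3, a secreted protein of goblet cell granules, had the same pattern as Muc5ac and a larger difference. It was at 29.8 and 303 RPM in the male and female α7G controls and at 4.31 and 15.1 with CS. In α7E260A:G it was at 223 and 44.7 RPM in controls and at 5.11 and 6.64 with CS. The 4 CS libraries lay below the 4 controls, and the log2 fold-change was -4.23 (SE 0.89, adjusted p = 0.63, edgeR). DESeq2 called it (adjusted p = 4.69e-06), and the CDS length offset left it at -3.99 (adjusted p = 0.235).

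Slc26a4, the anion exchanger pendrin, was untested and did not overlap either, at 2.80 to 5.34 RPM in controls and 0.249 to 1.33 with CS, the lowest of which is under the floor of 3 counts. Over the 6 goblet cell markers the sum was 133 to 581 RPM in controls and 63.3 to 208 with CS, which overlapped. Muc5b, Muc5ac and Clca3 are among the 6, so the sum is not a measure separate from them. The median log2 fold-change with CS of the 4 tested genes of the goblet cell programme was -0.02.

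**Figure D5:**
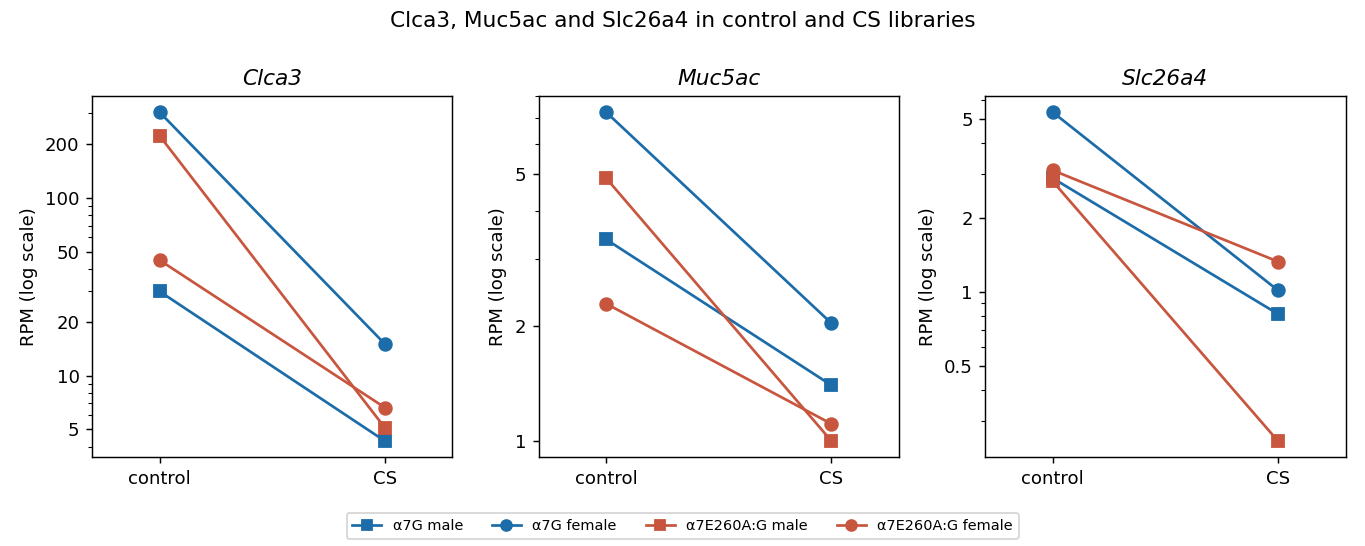
RPM on a log axis of Clca3, Muc5ac and Slc26a4 in control and CS libraries, with a line joining the libraries of 1 genotype and sex (squares male, circles female, blue α7G, red α7E260A:G). All lines go down, from 29.8 to 303 RPM in controls to 4.31 to 15.1 with CS for Clca3. The genes are shown because their CS libraries lie below all their control libraries, so the shared direction follows from the choice.

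The members did not vary as 1 block. Over the 8 libraries, Pearson's r of log2(RPM + 0.5) was 0.929 between Bpifb1 and Muc1, 0.911 between Reg3g and Lcn2, 0.904 between Bpifa1 and Reg3g and 0.860 between Muc5b and Pigr, while Ltf had no r above 0.321 with another tested member. The libraries share groups and length dependence, so these are descriptions. Among all other genes tested, those most like Bpifa1 were Odc1 (r = 0.980), Rnase4 and Vps4a, those most like Bpifb1 were Cldn7 (0.994), Adk and Pdpn, and those most like Muc1 were Gprc5a (0.985), Oat and Sftpb. Reg3g was most like Wfdc2 (0.994), Arl3 and Cct2, and Lcn2 most like Prpf38a (0.996), Drg1 and Tmed9. The nearest genes to Pigr were Fasn (0.957), Eif2b5 and Met, to Muc5b Racgap1 (0.95), Abhd13 and Gpam, and to Ltf Mapre1 (0.941), Hspbap1 and Agmo.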

How the data were processed

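RNA-Seq of 8 libraries was used as the authors deposited it: raw counts per gene over CDS. Per the study's methods, poly(A) RNA was sequenced in stranded libraries, aligned with STAR to mm9 (NCBIM37) and counted with HTSeq on GENCODE M1. CDS counting leaves out reads of untranslated regions, and no length correction had been applied. RPM is the count per 1000000 counts of the library. The counts were tested with edgeR 4.0.16 in R 4.3.3 (TMM scaling, quasi-likelihood, Benjamini-Hochberg over 7196 genes) with 4 groups and no sex term, as the study averaged male and female. The study's filter was kept: a mean count of at least 200, without immunoglobulin, histocompatibility, Gm and ribosomal subunit genes. Muc5ac and Agr2 were fitted among 14140 genes. DESeq2 1.42.0, total-count scaling, other filters, a lowess offset on CDS length, sex as a block and leaving out each library were alternatives. The fits were tested on simulated counts. Named genes were the members, genes of function lists that passed or did not overlap between 4 and 4 libraries (and Lbp, Igj and Muc4, named as members of short lists after their values were seen), and the 3 genes most like each member by Pearson's r; cell type markers are given as sums. Members and lists were chosen with earlier results of these data known.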

Additional observations from a re-analysis of the deposited data

Results flagged for a closer look

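Ltf, lactoferrin, differed between the genotypes in the direction of its response to CS: both sexes were lower with CS in α7G and higher in α7E260A:G. The difference of the log2 fold-changes was 1.25 (SE 0.68, adjusted p = 0.997, edgeR's quasi-likelihood test), so it did not pass the test, and 13.8% of the genes tested had both sexes opposite between the genotypes in one direction or the other. Leaving out 1 library at a time gave 0.70 to 1.86.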

How the results depend on the processing

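In edgeR's 4-group fit 0 members passed in any comparison. Between genotypes, 4 passed with DESeq2 (Bpifa1, Bpifb1, Muc1, Pigr), 4 with the CDS length offset (Bpifa1, Muc1, Pigr, Reg3g), 0 with sex as a replicate block and 5 with the replicate block and the offset together (Bpifa1, Bpifb1, Muc1, Pigr, Reg3g). With CS over both genotypes 1 passed with DESeq2, and with CS in α7G 2 passed in the fit of that genotype alone. Leaving out each library in turn gave 0 to 1 members for genotype and 0 to 1 for CS over both genotypes, the 1 being Muc5b or Bpifa1 without the male or the female α7E260A:G control library, and 0 elsewhere. Over the whole table, genotype calls went from 6 genes to 426 with DESeq2, 476 with the offset, 40 with the replicate block and 669 with both, and CS calls from 0 to 39 with DESeq2. Ltf, at 0.00 between genotypes, changed sign with total-count scaling (-0.0897), with the block (-0.0119) and with block and offset (-0.036).

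Leaving out a library changed the sign of the genotype difference of Muc5b (-1.18 to 0.074) and Ltf (-0.30 to 0.25), of the CS difference of Bpifb1 (-0.21 to 0.47), Muc1 (-0.20 to 0.45) and Lcn2 (-0.13 to 0.90), and of the CS difference in α7E260A:G of Muc5b (-2.17 to 0.30), Reg3g (-0.21 to 2.02) and Ltf (-0.21 to 0.82). The replicate numbers stand for sex only: the correlation between groups of the male minus female deviations ran from -0.05 to 0.84. With the replicate block the difference of the Ltf responses was 1.24 (SE 0.27, adjusted p = 0.862, edgeR), and 1 of 8 members had an unadjusted p under 0.05 for that difference, or 2 with block and offset, against 0 without. Total-count scaling moved the median of all genes to -0.14 for CS in α7G and to 0.22 for the difference of the responses. With 2 libraries a group, Muc5ac (8 to 68 counts) is limited by counting error as well. The cause of these changes was not tested.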
